A study of Mus musculus with 3 samples.

Results

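The mitochondrial genome of the mouse carries 37 genes, all with symbols that start with mt-. They were found by that symbol alone, with no threshold on a measured value. They were 37 of the 55536 genes in the tables, all annotated on the mitochondrial chromosome (chrM), each with 1 transcript. By role, 13 are messenger RNAs (mRNAs), 2 are ribosomal RNAs (rRNAs) and 22 are transfer RNAs (tRNAs). The mRNAs encode 7 subunits of complex I, 1 of complex III, 3 of complex IV and 2 of the ATP synthase (complex V).

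Mitochondria make ATP by passing electrons along complexes I to IV and driving the ATP synthase with the proton gradient that results. A single-subunit RNA polymerase, Polrmt, copies both strands of the circular genome into long precursors. Enzymes cut these at the tRNAs that lie between the other genes, which releases mRNAs, rRNAs and tRNAs. Nuclear chromosomes hold old insertions of mitochondrial DNA, and where such a copy is young its sequence can still match the mitochondrial gene, so that short reads fit both places. In macrophages, exposure to bacterial lipids is known to shift energy metabolism from respiration towards glycolysis.

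The RNA came from bone-marrow-derived macrophages of C57BL/6J mice, primary cells grown out of marrow precursors. All cells were given 100 ng/ml Lipid A, the part of lipopolysaccharide that the receptor TLR4 recognises, for 12 h, then 12 h without it, and a second dose of 100 ng/ml for 10 min. The chromatin fraction was taken, rRNA was depleted, and total RNA was sequenced in 3 libraries labelled as biological replicates with separate biosamples and 1 donor identifier. RNA input was 1 µg, 250 ng and 500 ng in replicates 1, 2 and 3. Sex and age were not collected, and no other condition or fraction was analysed here. In bulk RNA, fewer mitochondria, fewer cells and less RNA per cell cannot be told apart. All values are of the chromatin fraction, not of whole cells. How much mitochondrial material remained in each preparation is not given in the sources used here.

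Each library was quantified in 2 ways by the authors. The gene tables give expected counts and TPM, a level per length with the same sum in every table, from alignments to transcripts. The read-based tables give estimated counts and TPM obtained from reads without that step. Gene totals were 13538605, 19949204 and 18224466 expected counts in replicates 1, 2 and 3. Macrophage markers were present, with 8 of 8 at 1 TPM or more in every library and a summed level of 1394 to 1665 TPM. Of the 8 markers of T, neutrophil, erythroid and fibroblast cells, none reached 1 TPM in every gene table. Their summed level was at most 1.06 TPM per cell type and library, with S100a8, Ly6g, Cd3e and Hbb-bs at 0 in every gene table. The B cell marker Cd79a averaged 0.0733 TPM there. Cd3d, with a summed 0.04 TPM in the gene tables, averaged 13.8 TPM by read-based counting.

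Near-identical copies enter many of the values below, so they come first. A search of all GENCODE M21 transcripts with the member transcripts found 7 copies at 98% identity or more over at least 100 bases. They lie side by side on the minus strand of chromosome 1 (mm10), within 4663 bases (chr1:24611535-24616197), and are annotated as unprocessed pseudogenes. Gm28661 matched mt-Co2 over 681 bases, Gm10925 matched mt-Atp6 over 678, Gm28437 matched mt-Co3 over 783 and Gm28439 matched mt-Nd4 over 876 of its 1378 bases, all without a mismatch. Gm10222 matched mt-Nd4l without a mismatch over 294 of 297 bases. The sequence of mt-Nd4l (chrM:9877-10173, plus strand) shows how little sets it apart from its copy, since only the final bases, in capitals, are missing from Gm10222.
mt-Nd4l: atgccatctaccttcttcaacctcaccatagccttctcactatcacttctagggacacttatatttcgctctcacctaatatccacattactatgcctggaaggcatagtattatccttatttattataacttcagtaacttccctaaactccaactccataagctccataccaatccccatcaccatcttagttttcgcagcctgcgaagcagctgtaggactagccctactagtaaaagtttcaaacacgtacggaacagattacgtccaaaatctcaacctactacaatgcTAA

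The other 2 copies each held 1 mismatch. Counted from the first base of the mitochondrial transcript, Gm28438 differed from mt-Nd3 by T3C over 345 bases, and Gm29216 differed from mt-Co1 by A1066T over 483 bases. The stretches around these mismatches are shown because they hold the only bases by which a read from the aligned parts could be told apart. The differing base is in capitals. The mt-Nd3 stretch is chrM:9459-9491 and that of its copy is chr1:24613087-24613119.
mt-Nd3: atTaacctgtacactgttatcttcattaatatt
Gm28438: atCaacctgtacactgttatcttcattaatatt
The mt-Co1 stretch is chrM:6390-6423 and that of its copy is chr1:24616155-24616188.
mt-Co1: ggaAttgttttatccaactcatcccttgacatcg
Gm29216: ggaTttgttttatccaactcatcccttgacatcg
Gm29216 covers less than the whole of mt-Co1, which is 1545 bases long, and Gm28439 covers less than the whole of mt-Nd4. For the other 5 members the copy spans nearly all of the gene. At 90% identity 17 genes matched a member, and none of the 10 additional ones had more than 3 expected counts in a library. The highest of them by read-based counts was Gm43743, with 2, 1 and 0 expected counts and 44, 57.9 and 29 read-based counts.

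The members took a small part of the chromatin libraries. Their share of expected counts was 0.0820% in replicate 1, 0.0494% in replicate 2 and 0.0387% in replicate 3, a mean of 0.0567% ± 0.0226 (SD, n = 3). Wilson 95% intervals were 0.0805 to 0.0835%, 0.0484 to 0.0504% and 0.0378 to 0.0396%, which cover counting error only. The libraries were thus further apart than counting error, with replicate 1 highest. With the 7 copies added the shares were 0.0975%, 0.0623% and 0.0432%. The read-based tables gave 0.0689%, 0.0420% and 0.0293% for the members alone, in the same order. The mRNAs made up 91.5%, 95.5% and 92.3% of member counts in the gene tables, and the rRNAs the rest.

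In the gene tables, 10 of 37 members reached 1 TPM in all 3 libraries, against 24.4% of all genes. These were 8 mRNAs and both rRNAs. With read-based TPM, 18 members did, against 37.6% of all genes, namely all 13 mRNAs, both rRNAs and 3 tRNAs. Adding each copy to its member raised the count in the gene tables to 15, with all 13 mRNAs. The 5 mRNAs absent from the first count were mt-Co2, mt-Atp6, mt-Co3, mt-Nd3 and mt-Nd4l, the members whose copy spans nearly the whole gene.

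**Figure D1:**
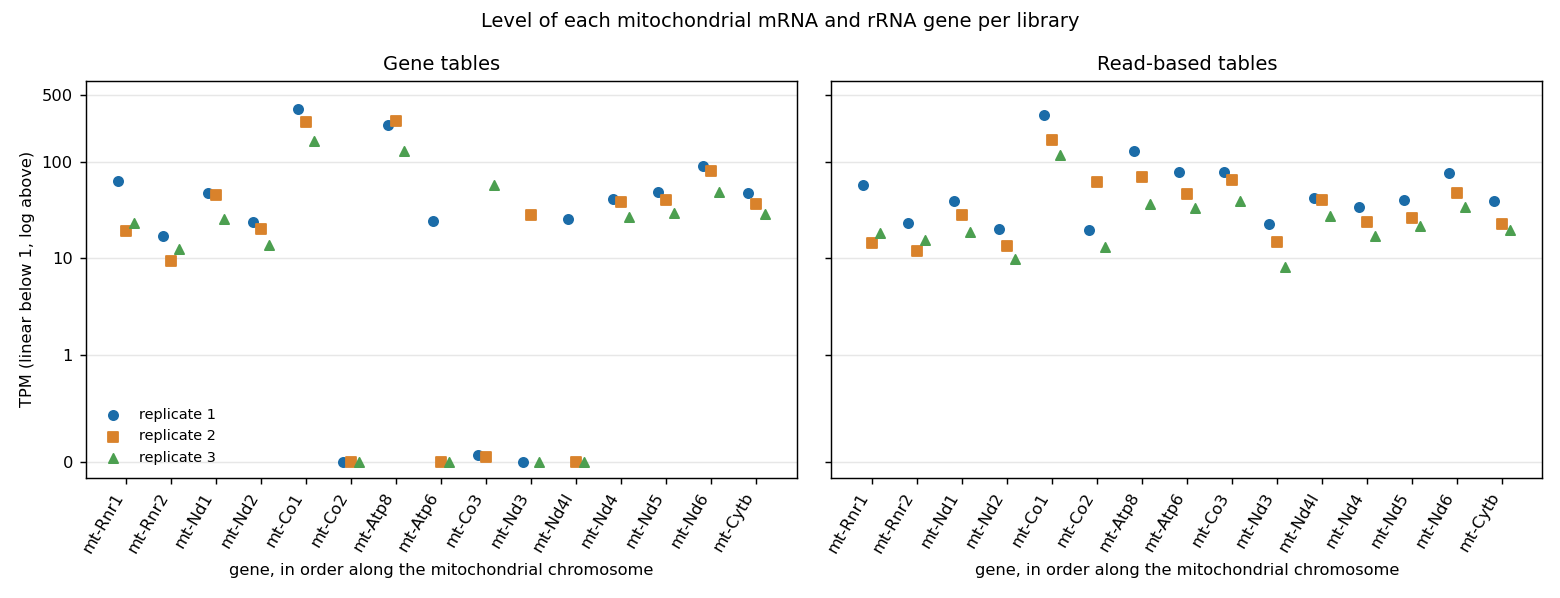
TPM of the 13 mRNAs and 2 rRNAs in each library, by gene tables (left) and by read-based tables (right), with 1 point per replicate on an axis that is linear below 1 and logarithmic above. In the gene tables mt-Co2 is at 0 in all 3 libraries, and mt-Atp6, mt-Co3, mt-Nd3 and mt-Nd4l are near 0 in 2 of 3; no mRNA is near 0 in the read-based tables.

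Complex IV, cytochrome c oxidase, passes electrons to oxygen, and its 3 mitochondrially encoded subunits form its catalytic core. mt-Co1 (ENSMUSG00000064351.1, chrM:5328-6872, plus strand), the subunit that holds the oxygen-reducing site, had the highest mean level of all members in both quantifications. It stood at 361, 262 and 165 TPM in the gene tables and at 311, 171 and 120 TPM in the read-based tables, in replicates 1, 2 and 3. Its expected counts were 6432, 5733 and 3535, so it held 63.3%, 60.9% and 54.3% of the mRNA counts of the members. With all copies added its gene-table share was 49.6% ± 2.57 and its read-based share 49.7% ± 2.74 (SD, n = 3). Its copy Gm29216 took 16.4, 32.5 and 0 expected counts and 12.0, 128 and 0 read-based counts, so little of mt-Co1 turned on the copy.

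mt-Co2 (chrM:7013-7696, plus strand) encodes the subunit that takes electrons from cytochrome c. It was given 0, 0 and 0.01 expected counts, while its copy Gm28661 was given 807, 851 and 376. In the read-based tables mt-Co2 had 165, 882 and 159 counts and Gm28661 had 729, 145 and 303. The part given to the gene was thus nearly 0% in every gene table, and 18.5%, 85.9% and 34.4% in the read-based tables. The sum of gene and copy was 807, 851 and 376 counts in the gene tables and 894, 1027 and 462 in the read-based tables, so replicate 3 was lowest in both.

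mt-Co3 (chrM:8607-9390, plus strand) encodes a core subunit that holds no metal site. The gene tables gave it 0.47, 0.34 and 513 expected counts, and gave Gm28437 760, 1024 and 0.79. Nearly all counts were on the copy in replicates 1 and 2 and on the gene in replicate 3. The read-based tables gave mt-Co3 98.6%, 94.6% and 99.1% of the summed counts, which were 814, 1177 and 595.

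The 2 mitochondrially encoded subunits of the ATP synthase share bases: the final 43 bases of mt-Atp8 are also the first of mt-Atp6. mt-Atp6 (chrM:7927-8607, plus strand) encodes the subunit that forms the proton path. It had 157, 0 and 0 expected counts and its copy Gm10925 had 436, 534 and 348, against 656, 653 and 408 read-based counts for the gene and fewer than 1 for the copy in every library. mt-Atp8 (chrM:7766-7969, plus strand) had no match at 98% identity among the annotated transcripts searched. It lies between mt-Co2 and mt-Atp6. The genome between their copies Gm28661 and Gm10925 was not searched, so an unannotated copy of mt-Atp8 is possible. The sequence of mt-Atp8 is printed because its short length enters its level, with the bases that overlap mt-Atp6 in capitals.
mt-Atp8: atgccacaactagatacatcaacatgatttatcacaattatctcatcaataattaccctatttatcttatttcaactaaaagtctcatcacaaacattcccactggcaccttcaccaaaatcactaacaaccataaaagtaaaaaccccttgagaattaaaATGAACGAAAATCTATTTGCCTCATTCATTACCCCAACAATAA
mt-Atp8 is 204 bases long, and fragments longer than that cannot lie within it. Its effective length, the number of positions at which a fragment could start, was 31.9, 20.2 and 21.6 bases in the gene tables and 55.6, 56.0 and 57.9 in the read-based tables. Its counts were 104, 91 and 46 in the gene tables and 124, 115 and 56 in the read-based tables, lower in the gene tables in 3 of 3 libraries. Its levels were 247, 266 and 130 TPM in the gene tables and 131, 70.0 and 37.1 TPM in the read-based tables, higher in the gene tables in 3 of 3 libraries. In replicate 2 of the gene tables mt-Atp8 was the highest member, just above mt-Co1. The order of the 2 quantifications thus turned round between counts and TPM. This was not particular to mt-Atp8. The same turn was seen in 3 of 3 libraries for mt-Co1, mt-Nd1, mt-Nd2, mt-Nd4, mt-Nd5, mt-Nd6, mt-Cytb and mt-Rnr1.

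**Figure D2:**
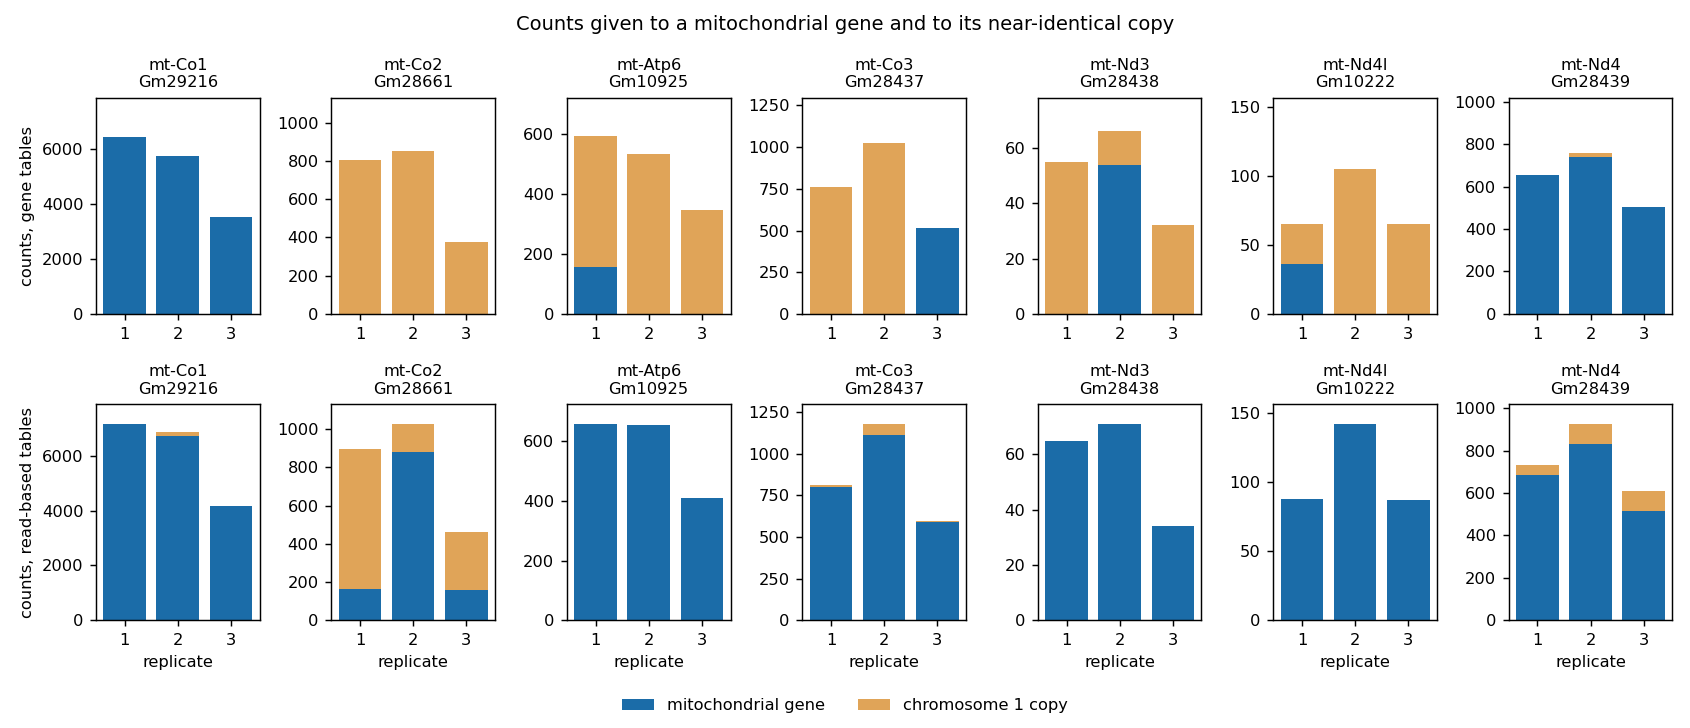
Counts given to each of 7 mitochondrial genes (blue) and to its chromosome 1 copy (orange) in replicates 1, 2 and 3, by gene tables (upper row) and by read-based tables (lower row), with 1 vertical scale per gene. The height of a bar, gene plus copy, is 0.739 to 0.941 times as large in the upper row as in the lower row, while the blue part of mt-Co2, mt-Atp6, mt-Co3, mt-Nd3 and mt-Nd4l differs between rows and between libraries.

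Complex I, NADH dehydrogenase, takes electrons from NADH, and its 7 mitochondrially encoded subunits form the core of its proton-pumping membrane arm. mt-Nd5 (chrM:11742-13565, plus strand) had the most counts of them, 1049, 1078 and 774 in the gene tables and 1137, 1247 and 902 in the read-based tables. mt-Nd4 (chrM:10167-11544, plus strand) had 653, 738 and 503 expected counts, against 685, 830 and 514 read-based counts. Its copy Gm28439 took 0, 20.4 and 0 expected counts and 45.7, 94.9 and 94.4 read-based counts. For mt-Nd4 the copy therefore held more in the read-based tables than in the gene tables in 3 of 3 libraries.

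mt-Nd1 (chrM:2751-3707, plus strand) had 478, 538 and 302 expected counts and 516, 624 and 362 read-based counts. mt-Nd2 (chrM:3914-4951, plus strand) had 268, 266 and 180 expected counts and 291, 326 and 212 read-based counts. No copy at 98% identity was found for either, and both quantifications placed replicate 3 lowest.

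mt-Nd3 (chrM:9459-9806, plus strand) and mt-Nd4l are the short subunit genes of the complex. mt-Nd3 was given 0, 53.8 and 0 expected counts and Gm28438 was given 55, 12.2 and 32, against 65, 71 and 34 read-based counts for the gene. mt-Nd4l was given 35.9, 0 and 0 expected counts and Gm10222 was given 29.1, 105 and 65, against 88, 142 and 87 read-based counts for the gene. A zero in a gene table was therefore matched by counts on the copy each time.

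mt-Nd6 (chrM:13552-14070, minus strand) is the only mRNA gene of the opposite strand, and it shares 14 bases with mt-Nd5. It had 384, 366 and 225 expected counts and 425, 448 and 277 read-based counts. Its level was 90.7, 80.9 and 49.6 TPM in the gene tables, above mt-Nd5 at 48.8, 40.5 and 29.8 TPM in 3 of 3 libraries. How the authors treated strand is not given in the sources used here, so reads of mt-Nd6 and of the other strand at this place cannot be told apart. In complex III, which passes electrons to cytochrome c, mt-Cytb (chrM:14145-15288, plus strand) is the mitochondrial gene. It had 593, 550 and 428 expected counts and 638, 626 and 483 read-based counts.

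With copies added, the order of the 15 mRNA and rRNA levels in the gene tables ran from mt-Co1 at 267 ± 100.1 TPM and mt-Atp8 at 214 ± 73.9 to mt-Nd2 at 19.3 ± 5.21 and mt-Rnr2 at 13.0 ± 3.91 (SD, n = 3). mt-Co2 followed mt-Atp8 at 98.8 ± 40.5 TPM and mt-Co3 stood at 90.2 ± 29.0. Most neighbours in that order were closer than their spread: the difference of means was larger than the larger of both SDs for 3 of 14 neighbouring pairs. The 3 were mt-Atp8 above mt-Co2, mt-Nd4l above mt-Nd5 and mt-Nd2 above mt-Rnr2. Within libraries these held, in that order, in 3, 2 and 3 of 3 gene tables and in 1, 3 and 1 of 3 read-based tables. Of all 14 pairs, the higher gene was higher in 3 of 3 libraries for 5 in the gene tables, and for 2 of these 5 in the read-based tables as well. On the log2(TPM + 0.1) scale the median level of the 13 mRNAs was 5.81 ± 0.35, and that of the 10042 nuclear protein-coding genes at 1 TPM or more in every library was 3.60 ± 0.11. Both are levels in the chromatin fraction, not in whole cells.

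The gene tables also list a posterior mean and a posterior SD of each count, the spread over the ways in which reads could be assigned. For the 8 members with no copy found at 98% identity the posterior SD was at most 0.0714% of the posterior mean. For mt-Co1 and mt-Nd4 it was 0.207 to 3.18%. For the 5 members inside a nearly complete copy it was 36.6 to 102%, with a median of 66.7% over 15 values. Of these 15 expected counts 11 were below 1, whereas none of the 15 posterior means was, the range being 13.7 to 582. mt-Co2, for example, had posterior means of 169, 157 and 194 counts with posterior SDs of 173, 129 and 89.3. A listed 0 for these genes therefore stood beside a posterior mean well above 0 in the same table.

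**Figure D3:**
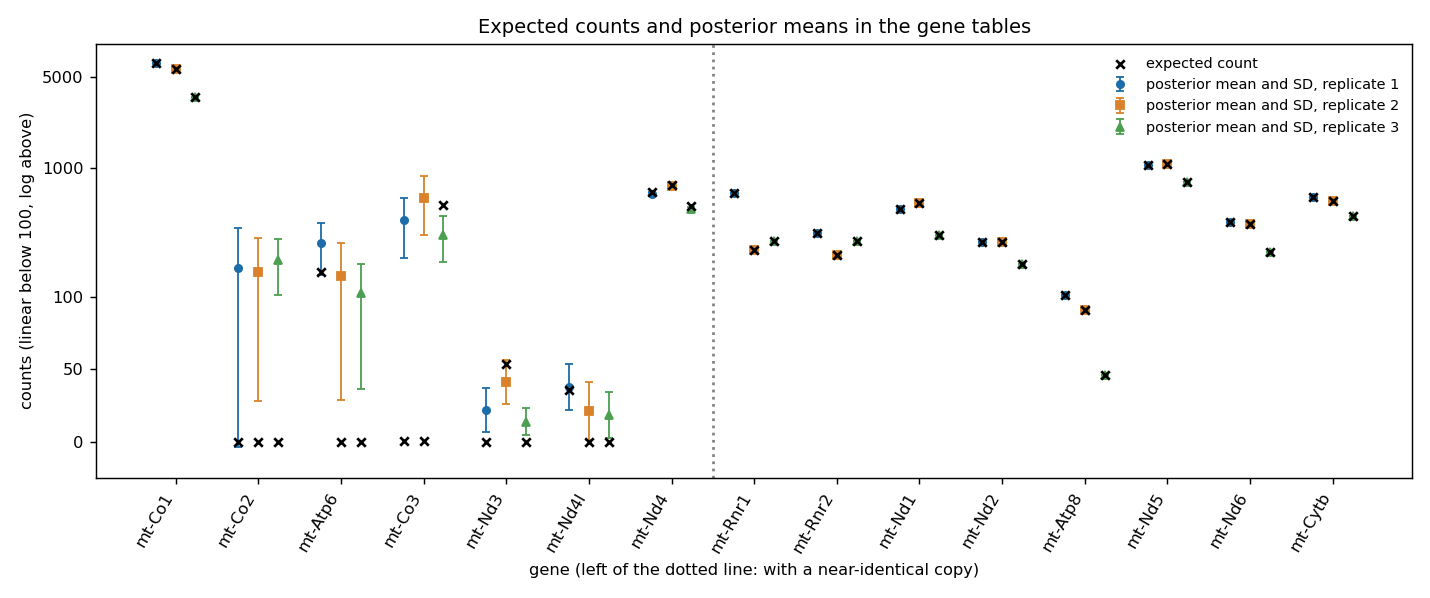
Expected counts (crosses) and posterior means with posterior SD (coloured points with bars) in the gene tables, for each mRNA and rRNA gene and each of 3 replicates, on an axis that is linear below 100 and logarithmic above. Right of the dotted line the crosses lie on the points; left of it, for mt-Co2, mt-Atp6, mt-Co3, mt-Nd3 and mt-Nd4l, 11 of 15 crosses lie near 0 below points of 13.7 to 582.

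The summed counts of gene and copy were lower in the gene tables for each of the 7 genes in 3 of 3 libraries. The ratio of summed counts, gene tables over read-based tables, was 0.739 to 0.941 over the 7 genes with a copy and 3 libraries. For the 6 mRNAs with no copy found the same ratio was 0.791 to 0.929. Over all genes of a library it was 0.664, 0.572 and 0.584 in replicates 1, 2 and 3. The listed copies of mitochondrial genes, a list of 9 that includes the 7, held 16.0%, 20.8% and 10.5% of the counts of members plus copies in the gene tables. In the read-based tables they held 5.51%, 2.92% and 4.36%. Gm29155 and Gm10221, the remaining genes of that list, matched no member in the search, and without them the gene tables gave 15.9%, 20.7% and 10.4%.

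The rRNAs form the small and the large subunit of the mitochondrial ribosome. mt-Rnr1 (ENSMUSG00000064337.1, chrM:70-1024, plus strand), of the small subunit, had 633, 232 and 271 expected counts and 759, 316 and 351 read-based counts. mt-Rnr2 (chrM:1094-2675, plus strand), of the large subunit, had 315, 213 and 273 expected counts and 552, 477 and 549 read-based counts. For mt-Rnr2 the gene tables held a smaller part of the read-based counts, 0.571, 0.447 and 0.497, than for mt-Rnr1, at 0.834, 0.734 and 0.772. The libraries had been depleted of rRNA, and whether that step reached the mitochondrial rRNAs is not given in the sources used here.

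No tRNA was counted in any gene table, and their effective length there was 0, so these zeros set no limit on the RNA. The tRNA genes are 59 to 75 bases long, and the labels give a selected size range of 250 to 400, without a unit. The read-based tables, with effective lengths of 11.8 to 16.0 bases, gave 69 counts in all 3 libraries together to 13 of the 22 tRNAs. Of these counts 63 fell on the 8 tRNAs encoded on the minus strand and 6 on the 14 encoded on the plus strand. Per library this was 12, 35 and 16 counts on the minus-strand genes and 2, 3 and 1 on the plus-strand genes, so the order was the same in 3 of 3 libraries. The 4 tRNAs with the most counts, all on the minus strand, are shown with the anticodon in capitals. They are mt-Ts1 (chrM:6870-6938), mt-Te (chrM:14071-14139), mt-Ta (chrM:5018-5086) and mt-Tp (chrM:15356-15422), which carry serine, glutamate, alanine and proline.
mt-Ts1: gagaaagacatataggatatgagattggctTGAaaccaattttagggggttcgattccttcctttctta
mt-Te: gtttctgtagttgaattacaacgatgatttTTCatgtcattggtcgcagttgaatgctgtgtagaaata
mt-Ta: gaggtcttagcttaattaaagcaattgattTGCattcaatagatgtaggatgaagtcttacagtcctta
mt-Tp: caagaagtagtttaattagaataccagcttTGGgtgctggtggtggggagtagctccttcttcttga
mt-Ts1 had 2, 9 and 7 read-based counts, mt-Ta 7, 7 and 1, mt-Te 0, 9 and 3, and mt-Tp 2, 5 and 4. Their mean levels were 15.3, 15.3, 9.11 and 10.1 TPM. mt-Tq, mt-Tn, mt-Tc, mt-Th, mt-Tv and mt-Ti, the other tRNAs with a mean of at least 1 TPM, had 1 or 2 counts in all. With so few counts, and with strand treatment not given, reads of a tRNA, of an uncut precursor and of the RNA opposite a plus-strand gene cannot be told apart; mt-Ts1, for instance, overlaps the end of mt-Co1 by 3 bases on the opposite strand.

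Between libraries the mitochondrial mRNAs moved together. With copies added and libraries scaled by TMM, 12 of 13 mRNAs were highest in replicate 1 and 13 of 13 were lowest in replicate 3. Among all 14790 genes tested, 38.1% were highest in replicate 1 and 31.7% lowest in replicate 3. The median deviation of the 13 mRNAs from their own mean, in log2 CPM (a count scaled by library size), was 0.43, 0.05 and −0.52 in replicates 1, 2 and 3, while over all genes it was −0.01, 0.00 and 0.00. Replicate 1 exceeded replicate 3 by a median of 1.91-fold, from 0.27 (mt-Nd4l) to 1.41 (mt-Atp8) on the log2 scale. These genes share precursors and a library, so they are not independent observations. mt-Nd4l, highest in replicate 2, was the exception.

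**Figure D4:**
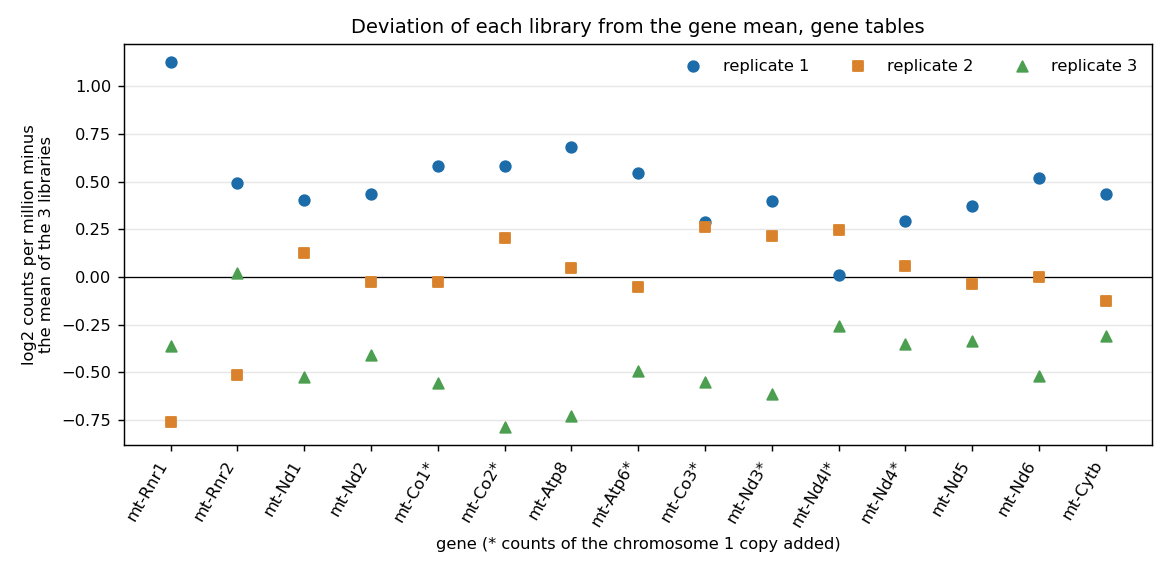
Deviation of each of 3 libraries from the mean of the gene, in log2 CPM from the gene tables (TMM scaled, prior count of 2), for 2 rRNAs and 13 mRNAs, with chromosome 1 copies added where marked by a star. Replicate 3 is lowest for all 13 mRNAs, and replicate 2 is lowest for both rRNAs.

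The rRNAs followed another order, with replicate 1 highest and replicate 2 lowest for both. mt-Rnr1 deviated by 1.13, −0.76 and −0.36 on the log2 scale in replicates 1, 2 and 3. A goodness-of-fit test in edgeR asked which genes varied between libraries more than genes of their level. It called 166 of 14789 genes, 1.12%, at a Benjamini-Hochberg adjusted p below 0.05, and 10 members were tested. mt-Rnr1 was the member called (edgeR adjusted p = 1.16e-06). Leaving out replicate 1 ended that call (edgeR adjusted p = 0.9999), so it rested on replicate 1. The adjusted p of mt-Rnr2 was 0.436 and that of mt-Co1 was 0.0857 in edgeR. At an unadjusted p below 0.05 were 6 of the 10 members, against 6.08% of all genes tested.

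The 5 members with a nearly complete copy were near 0 in most gene tables and did not pass the filter on low counts alone. They were tested with the copy added. In that fit, with 15 members, mt-Co2 with Gm28661 was called as well (edgeR adjusted p = 0.0197), with deviations of 0.58, 0.21 and −0.79. It called 165 of 14790 genes, again 1.12%. In the read-based tables, where 273 of 23769 genes (1.15%) were called, the members called were mt-Rnr1, mt-Co1 (edgeR adjusted p = 0.0411) and mt-Co2 alone (edgeR adjusted p = 7.37e-08). With Gm28661 added, mt-Co2 gave an edgeR adjusted p of 0.0209 there.

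Other properties of the libraries moved in part with these levels. RNA input was highest in replicate 1 and lowest in replicate 2, with 1 library at each amount. Of the expected counts, genes within the nuclear rRNA repeat held 10.1% in replicate 1, 21.4% in replicate 2 and 23.6% in replicate 3, and entries that are no genes held 1.39%, 0.288% and 0.283%. The fibroblast markers Col1a1 and Col1a2 had no counts in replicate 1, and 53 and 31 in replicate 2 and 23 and 21 in replicate 3, and DESeq2 marked both as dispersion outliers. The part of all these in the mitochondrial differences was not tested.

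The TPM of both quantifications was then compared within each library by limma on log2(TPM + 0.1), gene tables minus read-based tables. Both tables come from the same reads, so the difference is one of counting, and its p measures only the spread over 3 libraries. Over all 30715 genes tested the median difference was −0.99, with 2.24% of genes higher and 59.6% lower in the gene tables at an adjusted p below 0.05. Of 28 members tested, 8 were higher and 7 lower. The 8 were mt-Nd1, mt-Nd2, mt-Co1, mt-Atp8, mt-Nd4, mt-Nd5, mt-Nd6 and mt-Cytb, and the 7 were mt-Co2, mt-Atp6, mt-Nd4l, mt-Rnr2, mt-Ta, mt-Ts1 and mt-Tp. The last 3 are tRNAs. All tRNAs had an effective length and a TPM of 0 in the gene tables, so those tested could only come out lower. Of the 15 mRNAs and rRNAs tested, 8 were higher and 4 lower. Without replicate 2 none of the members and without replicate 3 only mt-Atp8 was higher by that test, while without replicate 1 there were 9. Over all 30715 genes those fits called 233, 229 and 1178 higher, against 687 with all libraries, so the calls over all genes fell and rose too.

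Among the 8, mt-Co1 was higher by 0.43 ± 0.11 (SE; limma adjusted p = 0.0231) and mt-Cytb by 0.49 ± 0.11 (limma adjusted p = 0.0173). mt-Atp8 stood out at 1.55 ± 0.23 (limma adjusted p = 0.0043). mt-Co2 was lower by 7.99 ± 0.48 on the log2 scale (limma adjusted p = 0.000245), a size set by the pseudocount, since the gene tables listed it at 0. mt-Atp6 was at −6.32 ± 1.57 and mt-Nd4l at −5.83 ± 1.73, both past the threshold, and mt-Co3 at −5.77 ± 2.13 and mt-Nd3 at −4.43 ± 1.83, both short of it. These sizes too were set by the pseudocount, as mt-Atp6 was at −4.12 with a pseudocount of 1 and at −8.54 with 0.01. The calls also turned on the setting. mt-Nd4l was no longer called with a pseudocount of 0.01 (limma adjusted p = 0.0616), with no filter (0.0567) or with TPM rescaled over protein-coding genes (0.0844), and mt-Atp6 was not called with rescaled TPM (0.0587). By CPM mt-Co3 and mt-Nd3 were called (limma adjusted p = 0.0302 and 0.040). Leaving out replicate 2 or 3 ended the calls of mt-Atp6 (limma adjusted p = 0.170 and 0.133) and mt-Nd4l (0.242 and 0.199), while mt-Co3 was called without replicate 3 (0.00261) and mt-Nd3 without replicate 2 (0.0106). mt-Rnr2 was lower by 0.36 ± 0.09 (limma adjusted p = 0.021) and mt-Rnr1 was at 0.30 ± 0.10 (limma adjusted p = 0.0575).

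Adding each copy to its gene turned the direction for all 5 genes with a nearly complete copy. mt-Co2 with Gm28661 was then at 0.46 ± 0.11 (limma adjusted p = 0.0235), mt-Atp6 with Gm10925 at 0.48 ± 0.11, mt-Co3 with Gm28437 at 0.50 ± 0.11, mt-Nd3 with Gm28438 at 0.85 ± 0.21 and mt-Nd4l with Gm10222 at 0.74 ± 0.21. In that fit 12 of the 15 mRNAs and rRNAs were higher, against 2.25% of all genes, and 1 was lower, against 59.6%. The lower one was mt-Rnr2. Over all 28 members tested 4 were lower, the others being 3 tRNAs, which could only come out lower. By TPM mt-Nd4 with Gm28439 was no longer called, at 0.30 (limma adjusted p = 0.0588), against 0.55 alone (limma adjusted p = 0.0129). By CPM that pair was still called, at 0.48 (limma adjusted p = 3.83e-05), against 0.63 alone (limma adjusted p = 5.2e-05).

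Over the 15 mRNAs and rRNAs with no copy added, the median difference per library was 0.22, 0.61 and 0.46, a mean of 0.43 ± 0.20 (SD, n = 3). With copies added it was 0.23, 0.67 and 0.47, a mean of 0.46 ± 0.22, in the same direction in 3 of 3 libraries both times. An exact two-sided sign-flip test gave p = 0.25 for each, the smallest that 3 libraries allow. Over all 37 members the median was 0 in each library, with all 22 tRNAs at 0 in the gene tables and 9 of them at 0 in the read-based tables too. With no copy added the 15 lay 1.43 above the median of all genes on the log2 scale.

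**Figure D5:**
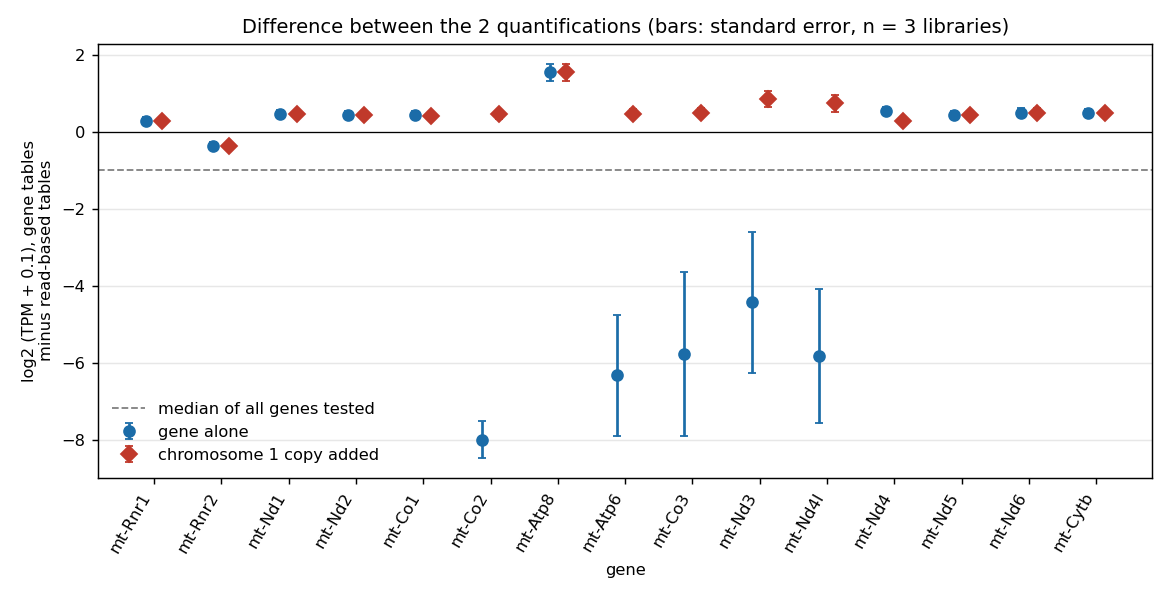
Difference in log2(TPM + 0.1), gene tables minus read-based tables, for each mRNA and rRNA gene alone (blue circles) and with its chromosome 1 copy added (red diamonds), with bars for the standard error over 3 libraries and a dashed line at the median of all genes tested. Alone, mt-Co2, mt-Atp6, mt-Co3, mt-Nd3 and mt-Nd4l lie at −4.43 to −7.99; with the copy added they lie at 0.46 to 0.85.

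The difference in TPM can be split exactly into counts, effective length and the sum over the table. For mt-Co1 counts contributed −0.20 ± 0.05, effective length 0.03 ± 0.02 and the table sum 0.61 ± 0.22 on the log2 scale (SD, n = 3). For mt-Cytb these terms were −0.16 ± 0.04, 0.04 ± 0.03 and 0.61 ± 0.22. The positive difference in these genes thus came mainly from the sum over the table, at 0.36, 0.79 and 0.66 in replicates 1, 2 and 3. That term is the same for every gene of a library, so it does not set these genes apart from other genes. mt-Atp8 differed in that effective length contributed 1.23 ± 0.37. mt-Rnr2 differed in that counts contributed −0.99 ± 0.18.

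Nuclear genes that serve the mitochondrial genome were measured beside it. Of 13 genes of mitochondrial transcription and genome copying, 12 were at 1 TPM or more in every gene table, against 24.4% of all genes. Polg, the DNA polymerase that copies the genome, was highest at 42.4 ± 5.09 TPM, followed by the single-strand binding protein Ssbp1 at 37.3 ± 1.89, the regulator Mterf3 at 25.1 ± 2.42 and the RNA polymerase Polrmt at 10.7 ± 3.99 (SD, n = 3). Mterf2 was lowest at 0.713 ± 0.517. Of genes for RNA processing and stability, 29 of 30 found were at that level, led by the nuclease Pnpt1 at 44.1 ± 6.78, Trnt1, which adds the CCA end to tRNAs, at 36.7 ± 8.14, Fastk at 36.0 ± 9.01 and Ptcd3 at 33.4 ± 1.73. Hsd17b10, a subunit of the enzyme that cuts the 5′ ends of tRNAs, was lowest at 2.18 ± 1.51. Prorp was not found under that symbol.

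The translation list also holds the membrane insertase Oxa1l, and Cox14, Cox18, Cox20 and Coa3, which serve complex IV assembly. Of its genes 16 of 16 were at 1 TPM or more in every gene table. They ran from Gfm2 at 42.9, Oxa1l at 30.5, Mtif2 at 25.6 and Mtfmt at 15.9 down to Taco1 at 2.11 TPM on average. All 21 nuclear-encoded subunits of the respiratory chain that were listed reached that level. Atp5b, the catalytic subunit of the ATP synthase, was at 72.7 ± 16.8 TPM, Sdha of complex II, which has no mitochondrially encoded subunit, at 68.5 ± 5.06, Cox7c of complex IV at 53.5 ± 14.5 and Ndufs1 of complex I at 41.8 ± 3.41. Uqcrfs1, the Rieske protein of complex III, was lowest at 3.55 ± 1.03.

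The same deviations were taken for the nuclear lists, and how they differ from those of the mitochondrial mRNAs was not tested. Their medians in replicates 1, 2 and 3 were −0.09, 0.01 and 0.08 for transcription and genome copying, −0.04, 0.03 and 0.04 for RNA processing, −0.04, 0.06 and 0.06 for translation and −0.09, 0.16 and −0.06 for subunits of the chain. Replicate 1 was highest for 4 of 12, 12 of 29, 4 of 16 and 5 of 21 genes tested. The goodness-of-fit test in edgeR called 0 genes in each of these 4 lists, against 1.12% of all genes, so at 12 to 29 genes a list the zeros are near the background. DESeq2 marked 0 of them as dispersion outliers, against 115 of the 55536 genes in the tables, of which those with no counts could not be marked. At an unadjusted p below 0.05 in edgeR there were 0, 0, 0 and 1 of 12, 29, 16 and 21, against 6.08% of all genes tested.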

How the data were processed

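Chromatin-fraction total RNA of 3 libraries of 1 condition was analysed. Per the file headers and the deposited notes, the gene tables hold expected counts and TPM from alignments to mm10 transcripts with GENCODE M21 annotation, and the read-based tables hold estimated counts and TPM per transcript. Their columns are those that RSEM and kallisto write, while tools, versions and strand setting are not stated there. Transcript values were summed per gene, and 86 identifiers absent from the read-based tables were set to 0. Entries that are no genes, 0.283 to 1.39% of expected counts, stayed out of library sizes and tests.

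Expected counts were rounded to whole numbers before edgeR 4.0.16 (R 4.3.3) was run. After filterByExpr and TMM scaling, an intercept-only fit with trended dispersion gave a goodness of fit per gene. In limma 3.58.1 the difference in log2(TPM + 0.1) was tested over genes with a mean of at least 0.1 TPM in either table, with Benjamini-Hochberg adjustment. DESeq2 1.42.0 served as an alternative. The procedures were tested on simulated data. Copies were found with blastn 2.17.0 among transcripts, since no genome was used. The sequences are those of GENCODE M21 transcripts.

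Every member is named, tRNAs from a mean of 1 TPM. Copies are named from a mean of 10 counts, and of the nuclear lists the 4 highest genes and the lowest. The members, though found by symbol alone, and the lists were chosen with earlier results of these data known. A marker gene of the lists is not reported here. Nothing says whether the replicates came from separate animals, so a p-value covers no more than their spread, which may be technical. Intervals cover counting error alone, because several reads can come from 1 molecule.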

Additional observations from a re-analysis of the deposited data

How the results depend on the processing

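No paired analysis was possible because all libraries belong to 1 group, so no groups of samples could be paired. The 2 quantifications were compared within each library throughout. Sums of gene and copy, posterior means and the match at 90% identity were chosen after seeing the data. The count of members detected stood at 18 by the read-based tables. The mean member share of 0.0567% was 0.0873% of protein-coding counts and 0.0817% of TPM. The goodness-of-fit calls, 166 over all genes and 1 over members, were 273 and 3 in the read-based tables, with or without copies added. Over members there were 2 with copies added. With no filter on low counts 5 of 14 members tested were called, namely mt-Rnr1 and the copy-divided mt-Atp6, mt-Co3, mt-Nd3 and mt-Nd4l. That fit called 221 of the 55536 genes in the tables, of which those with no counts were not tested. As dispersion outliers, a measure other than the goodness of fit, DESeq2 marked 5 of 37 members, against 115 of 55536 genes. Genes with no counts could not be marked. DESeq2 was run with no copies added, so the division of counts between gene and copy enters the number of members marked. Leaving out a replicate gave 56 to 76 over all genes and 0 to 1 over members. Genes higher in the gene tables, 687, were 4735 by CPM, 4742 with copies added to these, 5758 with TPM rescaled over protein-coding genes, and 229 to 1178 without a replicate. The median over all genes was −0.50 by CPM and −0.72 with rescaled TPM. Members higher, 8, were 14 by CPM with copies added and 0 to 9 without a replicate. Members lower, 7, were 9 by CPM, 4 with rescaled TPM, 4 with copies added by either unit and 5 to 10 without a replicate. Over all 30715 genes tested 18311 were lower, 17025 by CPM, 14580 with rescaled TPM and 14213 to 16794 without a replicate. With copies added 18313 of 30708 were lower by TPM and 17025 by CPM. Among the mRNAs and rRNAs alone 4 were lower, 6 by CPM, and 1 with rescaled TPM or with copies added by either unit. The copies held 4.27% of members plus copies in the read-based tables, against 15.8%. Rescaled TPM turned mt-Rnr2 to 0.083. Adding the copy turned 5 genes, at 0.46 by TPM and 0.48 by CPM for mt-Co2, 0.48 and 0.50 for mt-Atp6, 0.50 and 0.55 for mt-Co3, 0.85 and 0.55 for mt-Nd3, and 0.74 and 0.29 for mt-Nd4l. By construction the sums of counts and of CPM do not depend on how counts were divided between gene and copy. The sums of TPM do depend on it, because gene and copy differ in length, most of all for mt-Co1 and mt-Nd4. For the other changes the cause was not tested. Of 135 planned repeats of single-gene differences, 102 kept direction and side of the threshold and 25 kept direction but lost the threshold. The tRNAs had at most 9 counts in 1 library, and what limits them was not tested.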
